A study of Mus musculus with 60 samples.

Results

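The expression of 42 genes of DNA repair and of the DNA damage response was examined in mice given benzo(ghi)perylene (BghiP), a polycyclic aromatic hydrocarbon. The genes were chosen by name for their roles in repair, out of 20018 gene symbols on the array, and each was read by its brightest probe. The animals were 20 male MutaTMMouse of about 10 weeks, a strain that carries a lacZ reporter transgene in every group. They received olive oil alone (D0) or BghiP in olive oil at 6.25 (D1), 12.5 (D2) or 25 (D3) mg/kg-bw/day by daily oral gavage for 28 days, with 5 mice per dose, and lung, liver and forestomach were taken 72 hours after the last dose. RNA from random sections of each tissue was labelled with Cy5 and hybridised beside a Cy3-labelled reference pooled from mouse cell lines, and every value below is the log2 ratio of tissue to reference RNA. Mice 1 to 5 were D0, 6 to 10 D1, 11 to 15 D2 and 16 to 20 D3, and the same animals gave all 3 tissues.

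Hydrocarbons of this class can be converted to reactive forms that bind DNA. Bulky lesions of that kind are removed by nucleotide excision repair, in which recognition factors open the helix, a short stretch is cut out around the lesion and the gap is refilled. Smaller base lesions are removed by glycosylases in base excision repair, lesions met by a replication fork can be passed by translesion polymerases, and breaks are rejoined by homologous recombination or end joining under the control of the kinases ATM, ATR and DNA-PK. Many repair genes are most active in dividing cells, and a small set of them is also induced by p53.

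All 6 defining markers of lung and of liver were well above background on all 20 arrays of the tissue, as were 5 of the 6 of forestomach, with Krt6a so on 17. Some arrays also held markers of other tissues, and 3 stood apart from the rest of their tissue in this. In lung, D0 mouse 1 had a mean of 4.29 over 6 genes of squamous epithelium and 4.93 over 8 skeletal muscle genes, against at most -0.02 and 0.44 on the other lung arrays, and D3 mouse 20 had 4.71 over 6 liver genes, against at most 1.45. In forestomach, D0 mouse 2 had 6.06 over 6 lung genes, against at most 2.42, and 8 genes of the glandular stomach spanned 0.25 to 7.54 over the 20 arrays, with D0 at 0.66 to 6.48 and D3 at 0.25 to 6.28. The 6 liver genes spanned 0.01 to 5.12 on the forestomach arrays, with D0 at 1.45 to 2.89 and D3 at 0.01 to 4.42. The highest were D2 mouse 15 (5.12), D1 mouse 10 (4.73), D3 mouse 19 (4.42) and D1 mouse 7 (4.07), near the 4.71 of D3 mouse 20 in lung. A list of 7 fat cell genes spanned 0.43 to 4.44 on the lung arrays, with D0 at 0.43 to 2.49 and D3 at 1.21 to 3.64. On the forestomach arrays it spanned 0.80 to 5.42, with D0 at 1.01 to 5.42 and D3 at 1.30 to 3.39. The part of fat cells in the values of lung, and of any of these other cells in the values of forestomach, was not tested. Between 21.3% and 58.6% of probes were well above background per array. Lung and forestomach shared 5 slides that each held every dose, and liver lay on 3 other slides, so liver and slide cannot be told apart in comparisons of tissues. On every slide D0 lay in column 1, D1 in column 2, D2 in column 3 and D3 in column 4. Dose and column therefore cannot be told apart, with or without the slide block. On the shared slides lung lay in row 1 and forestomach in row 2, so these tissues and the rows cannot be told apart either. In bulk tissue, fewer cells of a type and less RNA per cell cannot be told apart.

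A gene was tested in a tissue if its probe was well above background on at least 5 of the 20 arrays, which held for 39 of the 42 genes in lung, 38 in liver and 36 in forestomach. Brca1, which acts in homologous recombination, and Neil3, a glycosylase of replicating cells, were not tested in any tissue, with at most 2 arrays of any tissue above background. Chek2, the kinase downstream of ATM, was tested in forestomach only, on 5 arrays. The glycosylase Ogg1 was not tested in liver, and Ogg1, Neil2, Ercc6 and Chek1 were not tested in forestomach. Calls of a dose or tissue required both an adjusted p no higher than 0.05 by limma and a difference of 1.5-fold or more, and calls of a slope on dose the adjusted p alone.

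In liver, 1 of the 38 tested members passed the test of a slope on dose, beside 0.239% of all probes, and 4 passed with the slide as a block, beside 2.61%. Shld2, a subunit of the shieldin complex that protects broken ends from resection, fell and passed both ways. Prkdc, Atm and Atr, which encode DNA-PKcs, ATM and ATR, the 3 large kinases that start the response to broken or stalled DNA, had rising slopes that passed with the block only, and Atm was higher than D0 at D3 alone. None of the 4 rose or fell by 1.5-fold with an adjusted p of 0.05 or less at any single dose without the block. Shld2, at 1.96-fold lower at D3, had an adjusted p of 0.0705 by limma and passed the D3 test with the slide block.

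The stretches before the starts of Shld2, Atm and Atr are shown because these genes passed the slope test with the slide block, with the core of the site bound by the aryl hydrocarbon receptor, GCGTG or its reverse complement, in capitals. Each is 250 bases up to the start of the gene, read 5′ to 3′ on the gene's strand, from RefSeq on GRCm38.p6. Prkdc is named only.
Shld2 (chr14:34310518-34310767, minus strand): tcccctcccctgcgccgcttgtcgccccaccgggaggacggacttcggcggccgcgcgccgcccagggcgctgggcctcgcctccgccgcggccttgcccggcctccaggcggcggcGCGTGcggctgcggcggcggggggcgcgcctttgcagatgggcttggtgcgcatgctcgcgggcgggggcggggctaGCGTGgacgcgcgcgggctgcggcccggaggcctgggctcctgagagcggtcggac
Atm (chr9:53536672-53536921, minus strand): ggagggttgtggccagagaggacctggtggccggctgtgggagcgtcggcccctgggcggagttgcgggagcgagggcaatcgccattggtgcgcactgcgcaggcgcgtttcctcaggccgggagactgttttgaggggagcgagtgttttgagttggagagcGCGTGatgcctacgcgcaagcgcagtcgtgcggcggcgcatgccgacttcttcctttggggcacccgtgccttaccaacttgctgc
Atr (chr9:95857347-95857596, plus strand): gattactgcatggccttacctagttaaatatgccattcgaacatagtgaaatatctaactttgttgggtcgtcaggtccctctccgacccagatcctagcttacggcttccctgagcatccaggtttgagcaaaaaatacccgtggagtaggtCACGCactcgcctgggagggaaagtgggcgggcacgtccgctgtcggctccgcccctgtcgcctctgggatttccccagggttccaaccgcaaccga
The core stood 2 times in the stretch of Shld2 and 1 time each in those of Atm and Atr. Over windows of 300 bases (250 before and 50 after the start), 24 of the 34 members with a window held it (70.6%), against 35.2% of all 27025 genes with one, and no test was made of this difference. The GC content of the printed stretches was 81.2% for Shld2, 66% for Atm and 55.2% for Atr, and how far base composition accounts for the shares was not tested.

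Shld2 (NM_029389) in liver had log2 ratios of 3.13, 3.18, 3.16, 3.71 and 3.18 in the D0 mice and 3.58, 3.11, 3.23, 4.01 and 2.81 in the D1 mice. The D2 mice had 2.84, 3.39, 3.02, 2.60 and 2.47, and the D3 mice 2.28, 2.45, 2.56, 2.05 and 2.15. All 5 D3 mice lay below all 5 D0 mice, whereas D1 and D2 overlapped D0. The mean was 3.27 ± 0.24 at D0 and 2.30 ± 0.21 at D3 (SD, n = 5), a change of -0.97 ± 0.19 (SE; adjusted p 0.0705 by limma), or -0.94 ± 0.16 (adjusted p 0.0375) with the slide block. On the 3 liver slides taken singly, D3 minus D0 was -0.77, -0.87 and -1.08.

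Over the whole dose range the slope for Shld2 amounted to a change of -1.07 ± 0.19 (SE; adjusted p 0.0213 by limma), or -1.01 ± 0.15 (adjusted p 0.0138) with the slide block. When each of the 20 mice was left out in turn, it lay between -1.13 and -1.001 without the block and between -1.10 and -0.97 with it, and the adjusted p was under 0.05 in 15 of 20 cases without the block and in 20 of 20 with it. The 5 cases that failed were those without D0 mouse 3 or D3 mice 16, 17, 19 or 20, with adjusted p-values of 0.051 to 0.0721. The raw Cy5 signal of the probe fell by 0.66 on the log2 scale from D0 to D3 while the Cy3 signal of the reference changed by 0.12.

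A second, dimmer probe of Shld2 did not show a fall of the same size. In liver it read 2.31, 1.82, 2.47, 2.92 and 2.47 at D0 and 2.17, 2.04, 2.41, 2.21 and 2.11 at D3, groups that overlapped, with a change of -0.21 ± 0.17 (SE; adjusted p 0.668 by limma). Both probes had their highest values in liver, with means of 2.95 and 2.33, and over the 20 liver arrays they correlated with r = 0.54. Which transcripts each probe reads was not tested.

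**Figure D1:**
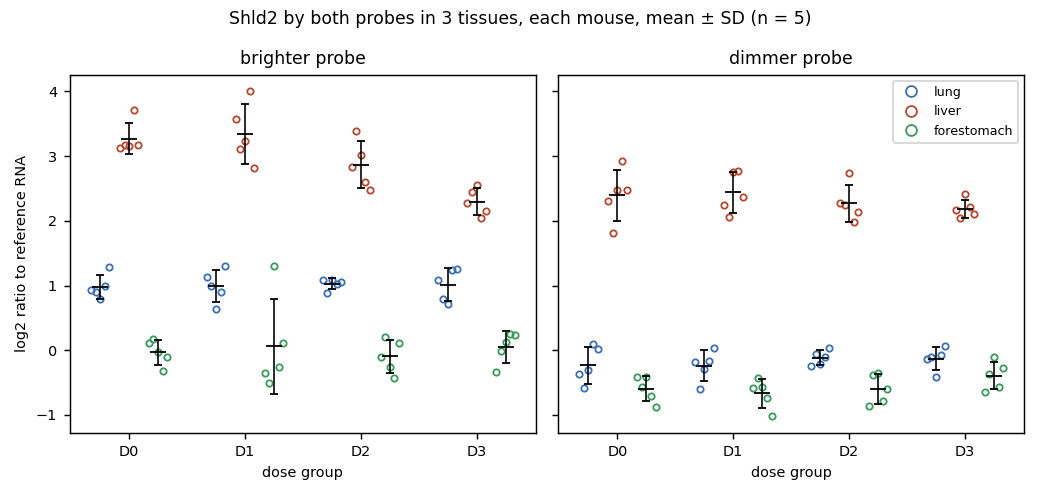
Log2 ratio of Shld2 to the reference RNA (y axis) by dose group (x axis) for its brighter probe (left) and dimmer probe (right), each circle a mouse, with mean ± SD bars (n = 5), in lung, liver and forestomach. The liver values stand above the other tissues by both probes, and the D3 liver mice lie below the D0 mice by the brighter probe only (mean 2.30 against 3.27).

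Prkdc (NM_011159) in liver read -0.68, -0.81, -0.63, -0.89 and -0.83 at D0, and -0.80, -0.65, -0.58, -0.80 and -0.49 at D1. It read -0.61, -0.70, -0.52, -0.63 and -0.50 at D2, and -0.42, -0.47, -0.55, -0.42 and -0.36 at D3. All 5 D3 mice lay above all 5 D0 mice. The D3 change was 0.33 ± 0.08 (SE; 95% interval 0.16 to 0.49; adjusted p 0.136 by limma), and the slope amounted to 0.32 ± 0.07 over the dose range (adjusted p 0.0547, or 0.0269 with the slide block).

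Atm (NM_007499) in liver was even among the D0 mice, at -0.76, -0.72, -0.82, -0.82 and -0.77, and stood at -0.96, -0.79, -0.90, -0.89 and -0.69 at D1. At D2 the values were -0.96, -0.80, -0.90, -0.74 and -0.58, and at D3 -0.46, -0.59, -0.48, -0.63 and -0.24. The D3 mice lay above all D0 mice, and D1 and D2 differed from D0 by -0.07 and -0.02 in the mean. The D3 change was 0.29 ± 0.09 (SE; adjusted p 0.192 by limma) and the slope 0.32 ± 0.09 over the range (adjusted p 0.0954, or 0.0431 with the slide block). A dimmer probe of Atm changed by 0.01 ± 0.08 at D3 (SE; adjusted p 0.975 by limma).

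Atr (NM_019864) in liver read -1.31, -1.50, -1.04, -0.87 and -1.24 at D0 and -1.31, -1.05, -0.75, -1.15 and -1.03 at D1. It read -1.07, -0.82, -0.78, -0.88 and -0.80 at D2 and -0.88, -1.08, -0.52, -0.73 and -0.73 at D3. The groups overlapped, although all 5 D3 mice and all 5 D2 mice lay above the D0 mean of -1.19. The D3 change was 0.41 ± 0.12 (SE; adjusted p 0.203 by limma), and 0.47 ± 0.10 with the slide block, where its adjusted p of 0.0455 passed but its size stayed under 1.5-fold. The slope was 0.41 ± 0.11 over the range (adjusted p 0.0995, or 0.0202 with the slide block).

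**Figure D2:**
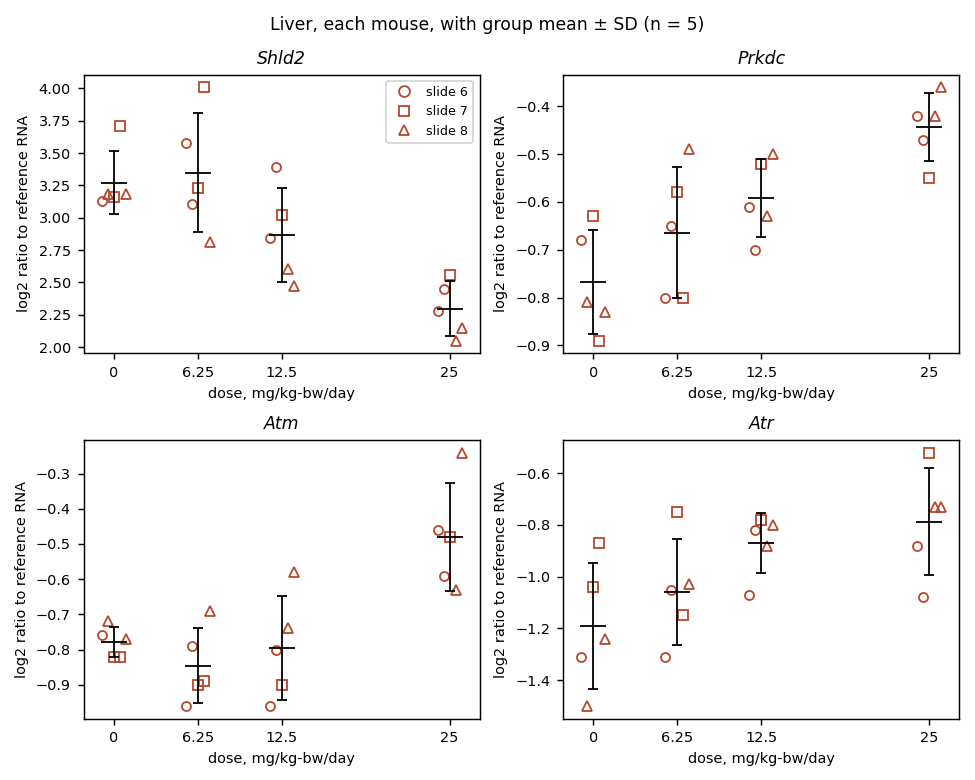
Log2 ratio to the reference RNA in liver (y axis) against dose in mg/kg-bw/day (x axis) for Shld2, Prkdc, Atm and Atr, each symbol a mouse and its shape the slide, with mean ± SD bars (n = 5). Shld2 falls from a mean of 3.27 at D0 to 2.30 at D3, and Prkdc, Atm and Atr are higher at D3 than at D0 by 0.33, 0.29 and 0.41.

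The counts of the slope in liver rested on single mice, for the members and for all probes. Among all 25890 probes the calls ran from 114 (0.44%), without D3 mouse 19, to 1281 (4.95%), without D0 mouse 1, with the slide block, and from 0 to 239 (0.923%) without it. Among the members, with the slide block they ran from 1, without D3 mouse 19, to 5, without D0 mouse 1. The counts were 2 without D0 mice 2 or 5 or D3 mice 16, 18 or 20. Without the block they ran from 0, without D0 mouse 3 or D3 mice 16, 17, 19 or 20, to 2, without D0 mouse 1 or D1 mouse 10. Atr kept its slope call in 18 of 20 leave-outs with the block, Prkdc in 15 and Atm in 8.

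At D3 in liver, 28 of the 38 tested members were higher than at D0, and their median change was 0.07, or 0.15 with the processed signals of the scanner, beside -0.00048 over all probes, of which 49.9% were higher. Parp1, which senses single-strand breaks, changed by 0.27 ± 0.10 (SE; adjusted p 0.299 by limma), with all 5 D3 mice above the D0 mean. With Shld2, Prkdc, Atm and Atr it made up the 5 members under an unadjusted p of 0.05, beside 12.1% of all probes. Shld2, Prkdc and Atm were the 3 members whose D3 and D0 values did not overlap, as was the case for 2.73% of all probes. The raw Cy5 signal of liver probes was 0.14 higher at D3 than at D0 in the median before normalization, and its part in these counts was not tested.

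After Shld2, the largest fall in liver was that of Rad23b, which binds XPC at damaged DNA. Its values were 0.39, 0.57, 0.50, 0.45 and 0.44 at D0, 0.37, 0.41, 0.41, 0.47 and 0.49 at D1, 0.23, 0.26, 0.32, 0.33 and 0.24 at D2 and 0.20, 0.46, 0.21, 0.40 and 0.51 at D3. The D2 mice lay below all D0 mice but the D3 mice did not, and the D3 change was -0.12 ± 0.07 (SE; adjusted p 0.549 by limma). The share of all probes clear of D0 at D2 was not counted. A dimmer probe of Rad23b changed by -0.03 ± 0.10 at D3 (SE; adjusted p 0.934 by limma), and its D2 values overlapped those of D0. No member was called at D1, D2 or D3 in liver without the block (0% of all probes at each dose), and with it Shld2 alone was called at D3 (0.0927% of all probes).

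A list of 89 further repair genes, of which 86 were on the array and 77 were tested in liver, was set beside the members. At D3, 54 of the 77 were higher and the median change was 0.07. For the slope with the slide block 5 of the 77 passed, beside 2.61% of all probes, and all 5 rose. They were Fancm, a DNA translocase of crosslink repair, by 0.37 ± 0.07 (SE) over the dose range, Msh3, of mismatch repair, by 0.43 ± 0.11, Parp2, the relative of Parp1, by 0.36 ± 0.10, Cul4a, the scaffold of the ubiquitin ligase that holds DDB1 and DDB2, by 0.36 ± 0.10, and Rad17, which loads the checkpoint clamp for ATR, by 0.33 ± 0.08. Their adjusted p-values by limma ran from 0.0182 for Fancm to 0.0498 for Cul4a, and without the block Fancm alone passed, at 0.0391. With the block and each of the 20 mice left out in turn, Fancm passed in 19 of the 20 fits, Rad17 in 12, Msh3 and Cul4a in 6 each and Parp2 in 5, so each call was lost without at least 1 of the mice. Gtf2h1, a subunit of the helicase complex TFIIH, lay just past the threshold in the other direction, with -0.41 ± 0.11 (SE; adjusted p 0.0507), and passed in 2 of these fits.

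**Figure D3:**
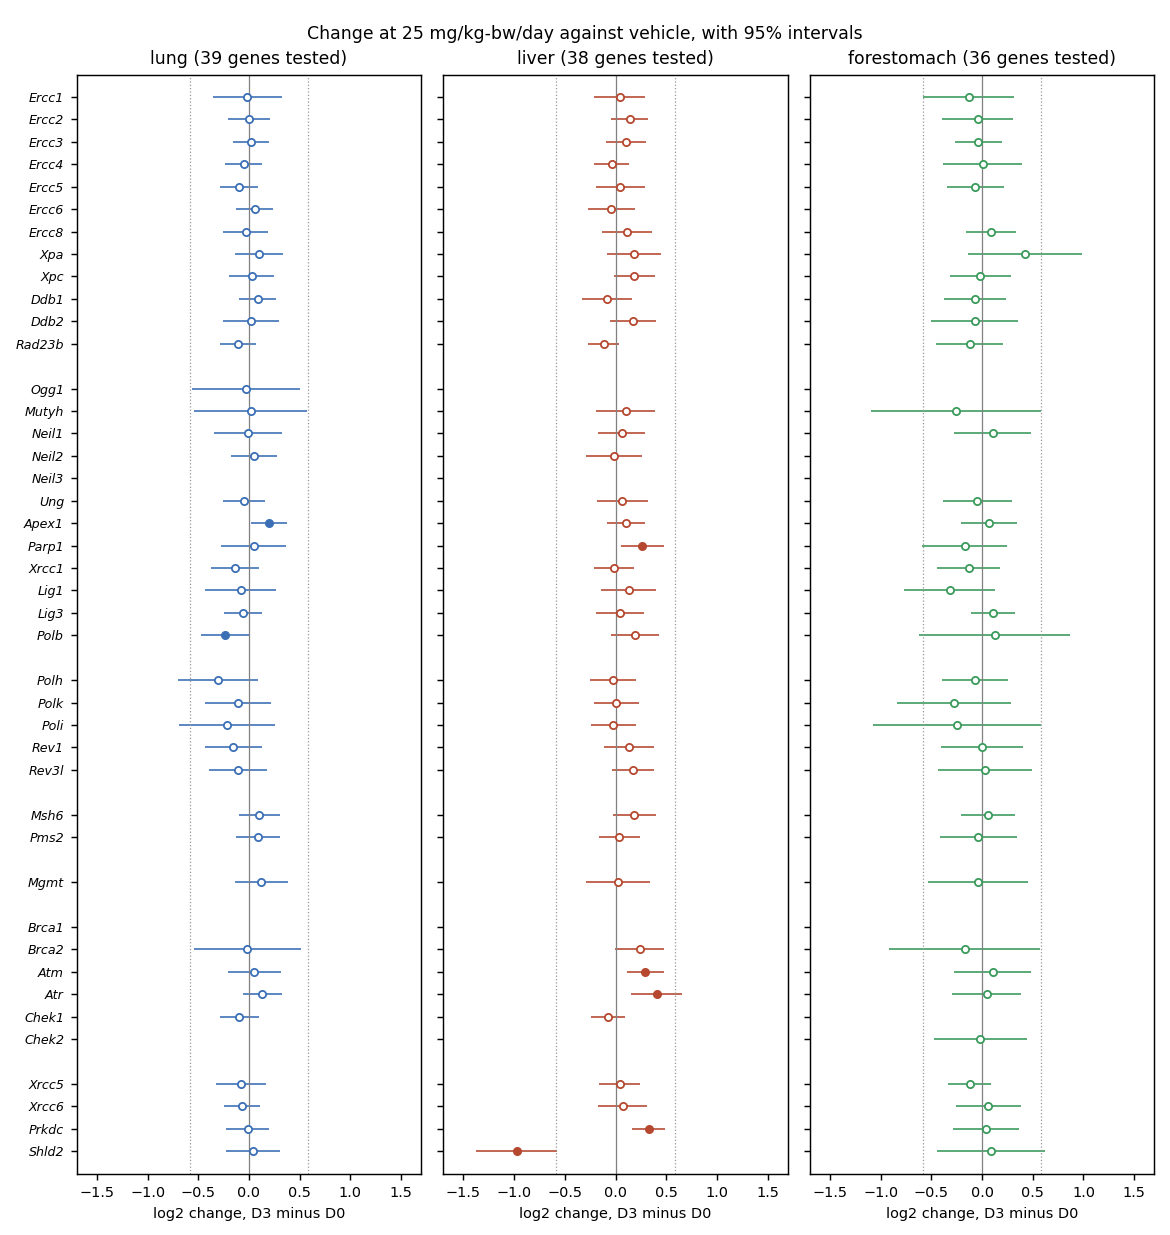
Log2 change from D0 to D3 (x axis) with its 95% interval for each tested member (rows, by role) in lung, liver and forestomach. Filled points have an unadjusted p under 0.05, and dotted lines mark 1.5-fold. Shld2 in liver, at -0.97, is the sole point beyond the dotted lines, and the forestomach intervals are the widest.

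In lung, no member was called for dose. None passed at D1, D2 or D3, or for the slope, where 0% of all probes were called, and none with the slide block, where 0.0677% of all probes were called at D3 and 0.306% for the slope. The median change of the 39 tested members at D3 was -0.01, beside 0.01 over all probes. For 37 of the 39 the 95% interval lay within 1.5-fold in both directions, as it did for 82.9% of all probes. No member had D3 values clear of the D0 values (0.824% of all probes).

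Apex1 and Polb, an endonuclease and a polymerase that act in succession in base excision repair, were the 2 lung members under an unadjusted p of 0.05 at D3, beside 4.81% of all probes. Apex1 read -2.03, -2.36, -1.99, -1.91 and -2.04 at D0 and -2.14, -2.04, -1.89, -1.99 and -2.06 at D1. It read -1.71, -1.73, -1.76, -1.85 and -1.91 at D2 and -1.82, -1.86, -2.05, -1.73 and -1.90 at D3. The D2 values were at or above the highest of D0, and the D3 change was 0.19 ± 0.09 (SE; adjusted p 0.998 by limma). Polb read 0.04, -0.27, -0.24, -0.27 and -0.43 at D0 and -0.48, -0.35, -0.36, -0.39 and -0.78 at D3, groups that overlapped, with a change of -0.24 ± 0.11 (SE; adjusted p 0.998). On slides 1 to 5, D3 minus D0 of Polb was -0.52, -0.08, -0.13, -0.12 and -0.35, below D0 on each. Without D0 mouse 1 and D3 mouse 20, the lung arrays with markers of another tissue, the change of Polb was -0.10, and that of Apex1 was 0.12 without D0 mouse 2. The D1 values of Polb were -0.65, -0.30, -0.14, -0.18 and -0.54 and its D2 values -0.48, -0.27, -0.37, -0.33 and -0.61.

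Atr had the second largest rise among lung members at D3 and Polh, the polymerase that passes bulky and ultraviolet lesions, the largest fall. Atr read -1.49, -1.64, -1.30, -1.21 and -1.04 at D0, -1.41, -1.41, -1.25, -1.25 and -1.22 at D1, -1.28, -1.15, -1.18, -1.27 and -1.16 at D2 and -1.18, -1.27, -1.21, -1.29 and -1.08 at D3, a change of 0.13 ± 0.09 (SE; adjusted p 0.998 by limma). Polh read -0.63, -0.79, -0.21, -0.92 and -1.20 at D0 and -1.10, -0.88, -0.86, -1.0 and -1.43 at D3. At D1 it read -1.18, -0.85, -0.57, -1.03 and -1.37 and at D2 -0.84, -0.92, -0.44, -1.10 and -1.33. In every dose group the value nearest to 0 came from slide 3, the dimmest with 39% of probes above background, and the farthest from slide 5, the brightest with 58.4%. The D3 change of Polh was -0.31 ± 0.19 (SE; adjusted p 0.998), or -0.31 ± 0.08 (adjusted p 0.0933) with the slide block, and D3 lay below D0 on each of the 5 slides, by -0.48, -0.09, -0.65, -0.08 and -0.23 for slides 1 to 5. It was -0.17 without D0 mouse 3, and the rise of Atr was 0.06 without D0 mouse 2 and 0.21 without D0 mouse 5.

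The p53 targets of lung were set beside these genes, since Xpc, Ddb2 and Polk belong to both lists. Of 22 p53 targets tested in lung, 10 had an unadjusted p under 0.05 at D3, beside 4.81% of all probes, all 10 of them higher, and 0 were called. They included Bax, a mediator of apoptosis, with a change of 0.54 ± 0.12 (SE; adjusted p 0.512 by limma, or 0.0167 with the slide block), Ephx1, an epoxide hydrolase, with 0.48 ± 0.11 (adjusted p 0.512, or 0.0244 with the block) and Cdkn1a, the inhibitor of cell cycle kinases, with 0.67 ± 0.21 (adjusted p 0.838). The part of D0 mouse 1 and D3 mouse 20, the lung arrays with markers of another tissue, in these changes was not tested. The 3 repair genes of the list were not among the 10. Xpc differed by 0.03 ± 0.11, Ddb2 by 0.02 ± 0.13 and Polk by -0.11 ± 0.15 (SE; adjusted p 0.998 each by limma).

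In forestomach, no member was called for dose, with or without the slide block. None of 36 was called at D1, D2 or D3 or for the slope, as was the case for 0% of all probes, and none was under an unadjusted p of 0.05 at D3 (1.5% of all probes) or free of overlap between D3 and D0 (0.245%). The median change of the members at D3 was -0.04, beside 0.01 over all probes. The intervals were wide here, and 26 of the 36 lay within 1.5-fold in both directions (61% of all probes).

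Xpa, which verifies damage in nucleotide excision repair, had the largest difference. It read 1.00, -0.61, -0.04, 0.31 and 0.79 at D0, 0.39, -0.09, 0.08, -0.43 and 0.42 at D1, 0.76, 0.39, -0.14, 0.38 and 1.02 at D2 and 0.99, 0.68, 0.57, 0.44 and 0.89 at D3. The D3 mice lay within the range of D0, and the change was 0.42 ± 0.27 (SE; adjusted p 1 by limma), or 0.20 without D0 mouse 2, the array with lung and glandular markers. Polb read 1.32, -0.05, 0.56, 1.71 and 1.49 at D0, 1.2, 0.20, 0.22, -0.10 and 1.32 at D1, 1.36, 0.43, 0.32, 1.16 and 0.85 at D2 and 1.91, 1.37, 0.98, 0.59 and 0.80 at D3. Its change of 0.12 ± 0.36 (SE; adjusted p 1) became -0.14 ± 0.34 without D0 mouse 2 and -0.07 ± 0.36 without D3 mouse 16. The lowest D0 values of both genes were in mice 2 and 3. The mean of the glandular stomach genes in D0 mice 1 to 5 was 0.842, 6.48, 5.81, 1.08 and 0.662, and in D3 mice 16 to 20 it was 4.42, 0.249, 0.41, 6.28 and 4.21. Its part in the values of Xpa and Polb was not tested.

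Lig1, the ligase of replication and repair, and Polk, a translesion polymerase for bulky adducts, had the lowest differences in forestomach. Lig1 read -2.20, -1.85, -1.30, -1.88 and -2.01 at D0, -1.76, -2.33, -1.63, -2.11 and -2.35 at D1, -1.63, -2.19, -2.01, -2.17 and -2.46 at D2 and -2.82, -1.97, -2.13, -2.21 and -1.69 at D3, with a change of -0.32 ± 0.21 (SE; adjusted p 1 by limma). Polk read -0.47, -0.40, -0.18, -0.75 and -0.87 at D0, -0.54, -0.51, -0.07, -0.59 and -1.22 at D1, -0.84, -0.39, -0.38, -0.51 and -1.71 at D2 and -0.55, -0.62, -0.34, -0.98 and -1.56 at D3, with a change of -0.28 ± 0.27 (SE; adjusted p 1). Both genes overlapped between D3 and D0, and Polk on the brightest slide, slide 5, was the lowest of each dose group. Single mice moved both, Lig1 to -0.16 without D3 mouse 16 or -0.18 without D0 mouse 3, and Polk to -0.09 without D3 mouse 20.

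A model of all 60 arrays asked if a response to D3 in one tissue exceeded that in another. No member was called (0% of all probes for each pair of tissues). For Shld2 the change in liver was lower than that in forestomach by 1.06 ± 0.29 (SE; unadjusted p 0.000639 by limma, adjusted p 1) and than that in lung by 1.01 ± 0.29 (unadjusted p 0.00104, adjusted p 1). In lung and forestomach Shld2 itself changed by 0.04 ± 0.13 and 0.08 ± 0.25 (SE). The fall in liver is therefore not shown to differ from the other tissues.

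The members as a group were lower in the tissues than in the cell line reference. In lung 33 of 39 tested members lay below it, in liver 26 of 38 and in forestomach 31 of 36, shares of 84.6%, 68.4% and 86.1% beside 44%, 44.7% and 46% of all tested probes. The 86 further repair genes on the array had medians of -0.91 in lung, -0.58 in liver and -0.71 in forestomach. Those of the 42 members were -0.84, -0.68 and -0.54. A list of 29 genes of proliferation had median log2 ratios of -3.14 in lung, -3.66 in liver and -2.11 in forestomach. Its part in the levels of the members was not tested.

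**Figure D4:**
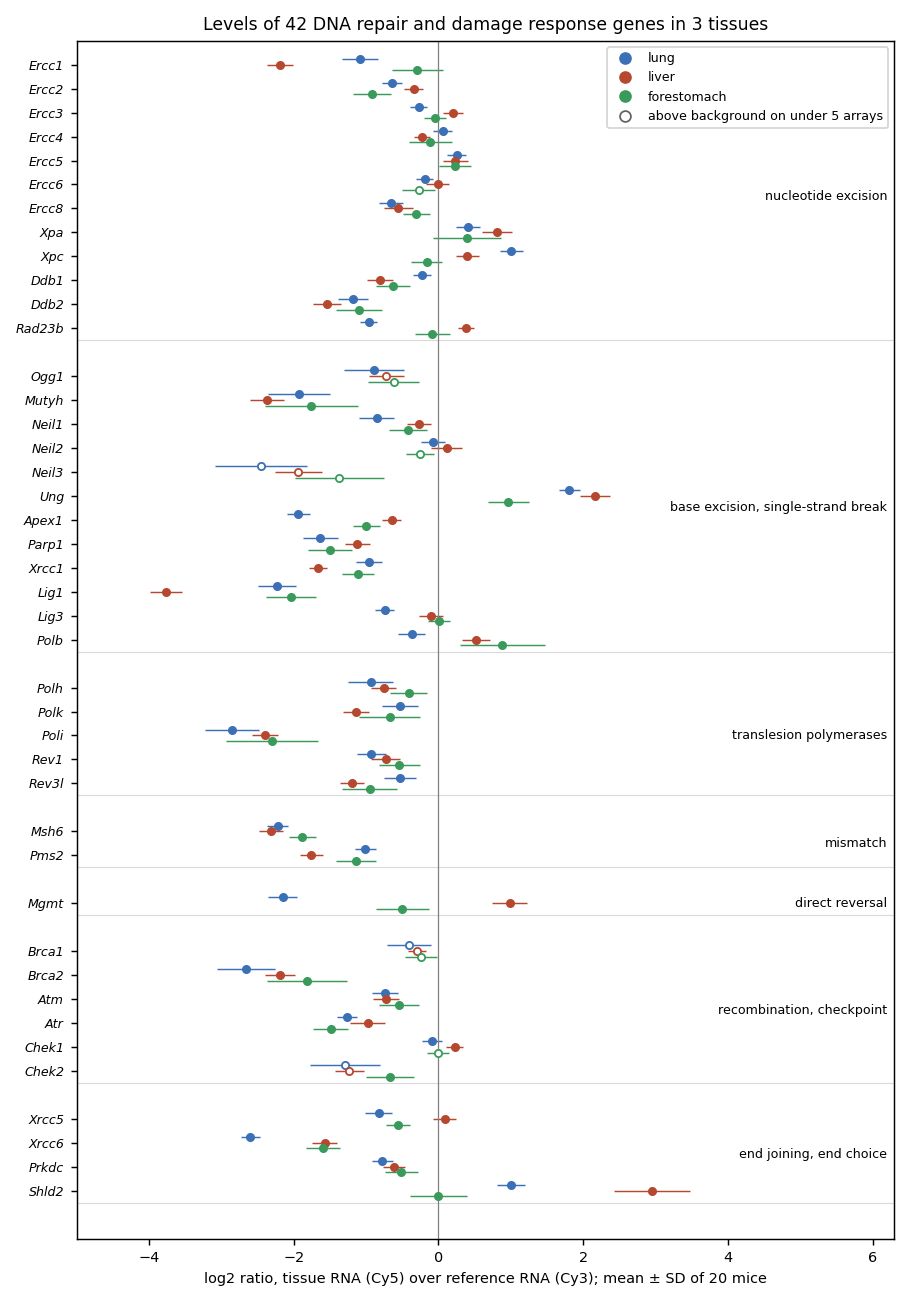
Log2 ratio to the reference RNA (x axis, mean ± SD of 20 mice) of the 42 members (rows, by role) in lung, liver and forestomach. Open circles are members well above background on fewer than 5 arrays of that tissue. Most points lie left of 0, and Mgmt and Shld2 spread widest between the tissues, from -2.16 to 0.98 and from 0.00 to 2.95.

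Between tissues, averaged over the doses, the members called were 38.5%, 30% and 20.5% of those tested for lung against liver, lung against forestomach and liver against forestomach, beside 46.7%, 35.8% and 45% of all probes, and the difference in share was not tested. Of 39 tested in lung against liver, 7 were higher in lung and 8 lower, beside 26.8% and 19.9% of all probes, and of 40 in lung against forestomach 3 were higher in lung and 9 lower, beside 19.6% and 16.3%. Of 39 in liver against forestomach, 4 were higher in liver and 4 lower, beside 20.3% and 24.8%. On the vehicle mice alone the last comparison gave 3 higher and 8 lower, and with the processed signals of the scanner it gave 17 calls in place of 8. Without lung of D0 mouse 1 and D3 mouse 20 and forestomach of D0 mouse 2 the counts were 16, 11 and 9 in place of 15, 12 and 8, with the other forestomach arrays that held liver or glandular markers kept. For 8 members a second, dimmer probe was read too, and it gave counts of 14, 10 and 8.

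Mgmt, the only member that acts by direct reversal, taking alkyl groups from guanine onto itself, differed most between lung and liver. Its lowest, median and highest log2 ratios were -2.47, -2.09 and -1.87 in lung, 0.66, 0.95 and 1.39 in liver and -1.08, -0.46 and 0.14 in forestomach. The 3 tissues did not overlap. Liver was 8.8-fold above lung (difference of lung minus liver -3.14 ± 0.09, SE, adjusted p 5.18e-36 by limma) and 2.79-fold above forestomach (1.48 ± 0.09, adjusted p 2.47e-21). At D3 Mgmt changed by 0.12 in lung, 0.03 in liver and -0.04 in forestomach, all with an adjusted p of at least 0.967 by limma. The stretch before the first of its 2 listed starts is shown because no other member differed as much between tissues, with the same core of the receptor's site in capitals, which stood 3 times in it.
Mgmt (chr7:136894336-136894585, plus strand): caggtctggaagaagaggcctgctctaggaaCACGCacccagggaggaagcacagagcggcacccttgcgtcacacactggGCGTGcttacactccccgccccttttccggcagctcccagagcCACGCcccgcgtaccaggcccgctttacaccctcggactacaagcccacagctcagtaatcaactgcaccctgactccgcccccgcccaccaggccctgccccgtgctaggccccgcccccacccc

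Nucleotide excision repair was uneven between tissues only in some of its 12 genes. Ercc1, which with Ercc4 (XPF) cuts on the 5′ side of a lesion, read -1.55, -1.06 and -0.61 in lung, -2.54, -2.15 and -1.81 in liver and -0.89, -0.25 and 0.41 in forestomach as lowest, median and highest. Liver lay below all arrays of the other tissues, 3.71-fold below forestomach (-1.89 ± 0.09, SE, adjusted p 1.52e-26 by limma) and 2.14-fold below lung, while lung and forestomach overlapped, although lung was called 1.73-fold lower. Its partner Ercc4 had means of 0.06 in lung, -0.23 in liver and -0.12 in forestomach and was not called between any of them. Xpc, which recognises distorted helices, was highest in lung and lowest in forestomach, at 0.80, 0.95 and 1.36 in lung, 0.08, 0.38 and 0.69 in liver and -0.50, -0.17 and 0.24 in forestomach. Lung was clear of both other tissues and 1.52-fold above liver and 2.25-fold above forestomach (1.17 ± 0.06, SE, adjusted p 8.52e-25).

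Rad23b, the partner of XPC, was 2.55-fold lower in lung than in liver (-1.35 ± 0.05, SE, adjusted p 1.86e-29 by limma) and 1.84-fold lower than in forestomach, with no overlap of lung with either. Its second probe bore out the difference from liver (1.73-fold) but not that from forestomach, where it read 1.10-fold with overlap. It was called 1.57-fold higher in liver than in forestomach, where it was well above background on 12 arrays and where the brighter probe was not called. The other members of the pathway, which were Ercc2 and Ercc3 (the helicases of TFIIH), Ercc5 (XPG, the 3′ nuclease), Ercc6 and Ercc8 (the CSB and CSA factors of repair in transcribed genes), Xpa, and Ddb1 and Ddb2 (which bind ultraviolet lesions in chromatin), were not called between any pair of tissues by their brighter probes. The second probe of Xpa was called 1.83-fold lower in lung than in liver, at -0.66 to 0.10 in lung and 0.21 to 1.13 in liver, without overlap.

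In base excision and single-strand break repair the calls went both ways. Ung, which removes uracil, was highest in liver, with a mean of 2.16, and at 1.81 in lung and 0.97 in forestomach, and both lung and liver were called above forestomach. Apex1 was 2.44-fold lower in lung than in liver (-1.29 ± 0.05, SE, adjusted p 3.71e-30 by limma) and 1.92-fold lower than in forestomach. Polb had lowest, median and highest values of -0.78, -0.36 and 0.04 in lung, 0.07, 0.52 and 0.95 in liver and -0.10, 0.92 and 1.91 in forestomach. It was 2.38-fold lower in lung than in forestomach (-1.25 ± 0.12, SE, adjusted p 3.67e-14) and 1.85-fold lower than in liver, and its SD over mice was 0.59 in forestomach.

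Ligases 1 and 3 differed in opposite ways between lung and liver. Lig1 read -2.62, -2.26 and -1.67 in lung, -4.16, -3.77 and -3.39 in liver and -2.82, -2.06 and -1.30 in forestomach. Liver was clear of both, 3.32-fold below forestomach (-1.73 ± 0.09, SE, adjusted p 1.95e-24 by limma) and 2.9-fold below lung (1.54 ± 0.09, adjusted p 2.95e-22). Lig3, of single-strand break repair, was lower in lung than in liver and forestomach, by 0.64 ± 0.05 and 0.75 ± 0.05 on the log2 scale (SE), and its second probe was called in both as well, by 1.77-fold and 1.69-fold, with 15 lung and 13 forestomach arrays well above background. Xrcc1, the scaffold that Lig3 binds, was 1.64-fold higher in lung than in liver. Mutyh, which acts opposite oxidised guanine, was called 1.53-fold lower in liver than in forestomach, where 13 arrays were well above background. Its values on slide 3, the dimmest of forestomach, ran from -1.01 to -0.38, above all other forestomach arrays (at most -1.2). The difference was not refitted without slide 3, so how far the call of Mutyh rests on that slide was not tested. Neil1 and Neil2, glycosylases for oxidised bases, and Parp1 were not called in any pair, and Ogg1, the main glycosylase for oxidised guanine, was tested against lung only and not called.

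**Figure D5:**
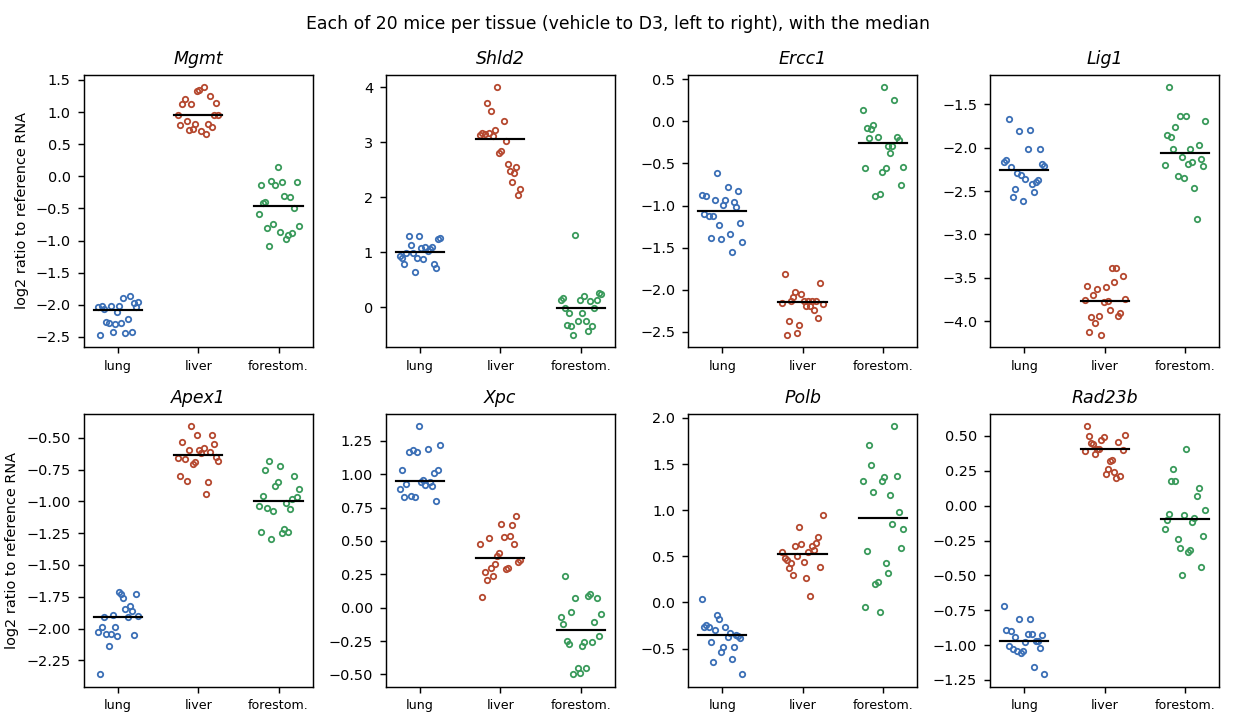
Log2 ratio to the reference RNA (y axis) of 8 members in each of 20 mice per tissue (circles, ordered by mouse number from D0 to D3), with the median as a line. Mgmt and Shld2 are highest in liver, Ercc1 and Lig1 lowest in liver, and Apex1 and Rad23b lowest in lung, each by the brighter probe of a gene.

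Of the translesion polymerases, Rev3l, the catalytic subunit of polymerase zeta, and Polk were 1.58-fold and 1.52-fold higher in lung than in liver, whereas Polh, Poli and Rev1 were not called in any pair. The second probe of Polk, well above background on 15 lung and 6 liver arrays, differed by 1.09-fold and was not called. In mismatch repair, Pms2 was 1.68-fold higher in lung and 1.53-fold higher in forestomach (14 arrays well above background) than in liver, and Msh6 was not called. On slide 3, the dimmest of forestomach, Pms2 read -0.78, -0.69, -0.81 and -0.72, above all other forestomach arrays but D0 mouse 2 (-0.65). The difference from forestomach was not refitted without slide 3. The second probe of Pms2, well above background on 6 lung and 0 liver arrays, differed by 1.04-fold between lung and liver and was not called. With no liver array well above background, it cannot bear on the call of the brighter probe. In end joining, Xrcc5 and Xrcc6, the Ku proteins that bind broken ends as a pair, were both lower in lung than in liver, by 0.91 ± 0.05 and 1.03 ± 0.06 on the log2 scale (SE). Against forestomach, Xrcc6 was lower in lung, by 1.01 ± 0.06, Xrcc5 was called higher in liver, by 0.65 ± 0.05, and the other two contrasts were not called. Prkdc, which Ku recruits, was not called in any pair.

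Shld2 had the widest range between liver and forestomach, with lowest, median and highest values of 0.64, 1.01 and 1.30 in lung, 2.05, 3.07 and 4.01 in liver and -0.51, -0.02 and 1.31 in forestomach. Liver was clear of both, 7.72-fold above forestomach (2.95 ± 0.10, SE, adjusted p 4.52e-32 by limma) and 3.84-fold above lung (lung minus liver -1.94 ± 0.10, adjusted p 5.43e-24). By the second probe liver was 7.40-fold above forestomach and 5.67-fold above lung, also without overlap. In forestomach the brighter probe was well above background on 14 of the 20 arrays and the second on 11, so these folds rest in part on values near background. Lung was called 2.01-fold above forestomach by the brighter probe, with overlap, and differed by 1.31-fold, with no call, by the second. In recombination and checkpoint control, Brca2 was lower in lung than in forestomach, by 0.84 ± 0.14 on the log2 scale (SE), with 16 and 10 arrays well above background. Chek2 is counted among the calls of that comparison, but it was well above background on only 3 lung arrays and entered through forestomach, so no difference is read from it, and 11 of 35 members were called when both tissues had to pass the filter. Atm, Atr and Chek1, the kinase that ATR activates, were not called between any pair in which they were tested.

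E2F factors drive genes of S phase. Their motif, as any of TTTCCCGC, TTTCGCGC, TTTGCCGC and TTTGGCGC on either strand, stood in the windows of 5 of the 34 members with one, namely Lig1, Msh6, Brca2, Chek2 and Xrcc6, a share of 14.7% beside 2.6% of all genes. The CHR motif TTTGAA of genes of the later cell cycle stood in 1 of the 34, that of Ercc5 (2.94%, beside 20.2% of all genes). These shares describe letters in the windows and were not tested.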

How the data were processed

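Per the labels, RNA of each tissue (Cy5) was hybridised against universal mouse reference RNA (Cy3) on 60 Agilent 2-colour arrays with no dye swap. The authors scanned the arrays with Feature Extraction 10.7.3.1, which gave the deposited median intensity of each of 62976 spots, and deposited log2 ratios after LOWESS. Control spots and outlier values (0.46%) were left out. Median signals without background subtraction were loess-normalized within arrays in limma 3.58.1 (R 4.3.3), and the log2 ratios correlated with the deposited ones with r of 0.992 to 0.999. Each gene was read by its brightest probe in Cy5. A probe entered the tests of a tissue when 5 or more of its 20 arrays had a Cy5 signal well above background (31019 in lung, 25890 in liver, 25068 in forestomach), with limma's moderated test against D0 or for a slope on dose, and in a model of 12 groups between tissues, adjusted by Benjamini-Hochberg over all probes tested. The study's own test, which shuffles residuals, was not rerun. With it and the same cutoffs the study reported differentially expressed genes for BghiP at every dose in each tissue. In these comparisons limma without the slide block called 0% of all probes. The number of arrays limits the precision.

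Array symbols came from RefSeq, by the accession of each probe in the scanner files, and 47.4% of probes received one. The labels name the same mouse number for the 3 tissues of an animal, so mouse was a paired (replicate block) alternative. Deviations from group means correlated between the lung and forestomach of a mouse with a median r of 0.21, and between liver and lung or forestomach with 0.05 and -0.0015. The lung and forestomach of each mouse lay on the same slide, and the lung of a mouse correlated with the forestomach of the other mice of its slide with a median r of 0.19. The replicates are separate mice. Members described in full were those called for dose or slope, those with the 2 largest changes in each direction per tissue or tissue comparison, and those without overlap at D3. The slide block, other signals and filters, the dimmer probe of a gene, and leaving out each replicate were tried as alternatives. The members, lists and rules were chosen with earlier results of these data known. Fits were tested on simulated data. Promoter windows came from RefSeq on GRCm38.p6 and the array headers name mm9, so no position of a probe is given.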

Additional observations from a re-analysis of the deposited data

Results flagged for a closer look

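Among the genes described in full, 168 sets of 5 mice were examined, and in 5 of them a single mouse stood apart by more than 0.71 of the range of the set, while chance gives about 8.4. Shld2 in liver of D0 mouse 4 was 3.71 against 3.13 to 3.18 in the other D0 mice, a gap of 0.908 of the range, and in lung of D2 mouse 12 it was 0.878 against 1.03 to 1.09. Mgmt in lung of D3 mouse 17 was -2.42 against -2.03 to -1.87. Ercc1 in forestomach of D2 mouse 11 was 0.41 against -0.55 to -0.29. Xpc in lung of D2 mouse 14 was 1.19 against 0.92 to 0.96. Without D0 mouse 4 the slope of Shld2 in liver kept its call.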

How the results depend on the processing

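The slide block raised the members called in liver from 0 to 1 at D3 and from 1 to 4 for the slope. With the slide block and each liver mouse left out in turn the slope count was 1 to 5, taking the values 1, 2, 3, 4 and 5, and without the block it was 0 to 2. Leaving out single mice gave 0 to 0 members called at every dose in each tissue, for the slope in lung and forestomach and for differences of the D3 change between tissues. The median D3 change ran from -0.05 to 0.02 in lung, 0.06 to 0.09 in liver and -0.06 to 0.04 in forestomach, and with the processed signals of the scanner it was 0.15 in liver. Polb in forestomach (0.12) turned to -0.14 without D0 mouse 2 and to -0.07 without D3 mouse 16, within a range of -0.14 to 0.30. Between tissues, leaving out single arrays gave 14 to 17 members for lung and liver, 11 to 13 for lung and forestomach and 7 to 10 for liver and forestomach, and the processed signals gave 17 and the vehicle mice 11 in place of 8 for the last, for which the cause was not tested. With the mouse as a replicate block (pairing the tissues of an animal), the counts were 15, 12 and 8, as without it, and 0 for the D3 changes, where Shld2 in liver minus forestomach had an adjusted p of 0.818 by limma. The slope with the slide block and a mouse left out together, the further repair genes so refitted, the fits without lung of D0 mouse 1 and D3 mouse 20 and forestomach of D0 mouse 2, and the dimmer probe between tissues (14, 10 and 8 members) were added after seeing the data. The dose fits of lung and forestomach without slide 3 were also added then, and their values are not given here. Comparisons of tissues were not refitted without slide 3. Signal over background limits forestomach most, with 21.3% to 53.3% of probes well above background per array.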
